A study of Mus musculus with 59 samples.

Results

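The comparison set the CTCF sites of Thy1+ cells beside those of day 0 cells, the first step of reprogramming for which the series has a sorted population. Its members were the control samples of both groups, 4 of 59 samples in all, and the peak list deposited for each group: 52800 sites for Thy1+ cells and 28838 sites for day 0 cells. The Thy1+ samples were taken on days 3 and 9 of reprogramming (1 ChIP sample each) and, by their titles, carried an shRNA against luciferase. The day 0 samples (2 ChIP samples) carried the same control shRNA, and the labels do not say whether they had received the OSKM virus. Both groups came from mouse embryonic fibroblasts. For the sorted cells the factors OSKM (Oct4, Sox2, Klf4 and c-Myc) were delivered by a doxycycline-inducible lentivirus together with the rtTA activator, in ESC medium with vitamin C, and the shRNAs were delivered by retrovirus into OG2 fibroblasts, which carry an Oct4-GFP reporter. Thy1, a surface glycoprotein of fibroblasts, was the marker of the sort. The lists do not measure expression, so the label could not be checked against the level of Thy1.

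CTCF is a zinc-finger protein that binds a long, GC-rich DNA motif at many sites along chromosomes. Together with the ring-shaped cohesin complex it halts the growth of chromatin loops, and it can insulate an enhancer from a promoter. Many of its sites are occupied in most cell types, while others depend on the cell type and on DNA methylation or nucleosomes at the site.

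Both lists consist of intervals of 400 bp, and the score of every interval is 0, so a site is present or absent and its strength is unknown. Each group had 1 list, named for 2 ChIP samples with no statement of how they were combined, and no difference between the lists has a replicate check. No test was therefore run, and 95% Wilson intervals, given in brackets, cover counting error only. Read depth is not given by the sources used here. The Thy1+ list was 1.83 times as long as the day 0 list, and list length, sequencing depth and the cell population cannot be told apart. The labels' protocols describe both a standard ChIP and a ChIPmentation procedure for fewer cells without saying which sample had which. The labels of the day 3 Thy1+ samples conflict. The sample titled as control names the Ctcf shRNA list in its description, and the sample titled as Ctcf shRNA has a source name of control shRNA and names the control list. By the descriptions, each Thy1+ list was thus made from 1 sample titled as control and 1 titled as Ctcf shRNA, while the source name puts the second sample with the controls. Which samples entered which Thy1+ list cannot be told, and exchanging the lists does not settle it. Values with the Thy1+ Ctcf shRNA list in place of the control list are given below for the gained and lost shares, the promoter shares, the motif and the gene groups.

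Coordinates also differed between the lists. Of the day 0 intervals, 424 (1.47%) had the same start as a Thy1+ interval, against 94.5% of the Thy1+ Ctcf shRNA list, 86.8% of the SSEA1- Thy1- control list and 84.1% of the SSEA1+ control list. Where Thy1+ and day 0 sites overlapped, their starts were close, with a median offset of 19 bp and 85.8% at most 50 bp apart. A site was called gained when it was in the Thy1+ list and overlapped no day 0 site by 1 bp or more, lost when it was in the day 0 list and overlapped no Thy1+ site, and kept otherwise.

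Promoter sequences of 4 genes are shown. They are examples of promoters with a gained site and no match to the CTCF motif, and with a kept site and a match. They are not typical of the 2 classes, since most windows with a kept site had no match either (14.6% had one, against 4.12% of windows with a gained site). They are the 250 bases before the transcription start on the gene's strand, from RefSeq (GRCm38.p6), the build of the lists. Capitals mark matches on either strand to a core of the CTCF motif, spelled CCA, 2 free bases, AG, 2 free bases and GGC. Twist1 and Itgb1 had a gained site at the promoter and no match. Cebpb and Mdm2 had a kept site, and they were chosen after their values were seen, as the members of the gene groups below whose promoters matched the motif. Twist1 encodes a transcription factor of mesenchyme, Itgb1 the integrin beta 1 subunit that anchors cells to matrix, Cebpb a transcription factor of mesenchymal and fat cells, and Mdm2 the ubiquitin ligase that restrains p53.
Twist1 (gained site, chr12:33957421-33957670, plus strand): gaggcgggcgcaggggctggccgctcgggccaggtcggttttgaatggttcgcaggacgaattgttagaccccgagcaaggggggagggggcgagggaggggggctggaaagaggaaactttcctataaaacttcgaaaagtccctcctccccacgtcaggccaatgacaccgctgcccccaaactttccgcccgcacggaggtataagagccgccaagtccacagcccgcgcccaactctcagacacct
Itgb1 (gained site, chr8:128685404-128685653, plus strand): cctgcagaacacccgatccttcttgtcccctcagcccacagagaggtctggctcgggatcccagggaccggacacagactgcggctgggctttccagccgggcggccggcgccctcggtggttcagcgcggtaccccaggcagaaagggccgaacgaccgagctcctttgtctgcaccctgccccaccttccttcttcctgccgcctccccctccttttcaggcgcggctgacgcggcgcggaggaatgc
Cebpb (kept site, chr2:167688665-167688914, plus strand): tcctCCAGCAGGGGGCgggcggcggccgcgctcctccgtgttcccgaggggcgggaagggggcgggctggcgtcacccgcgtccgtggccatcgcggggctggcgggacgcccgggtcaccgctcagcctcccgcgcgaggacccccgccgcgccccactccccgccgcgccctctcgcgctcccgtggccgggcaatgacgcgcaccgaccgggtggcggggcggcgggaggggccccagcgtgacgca
Mdm2 (kept site, chr10:117710759-117711008, minus strand): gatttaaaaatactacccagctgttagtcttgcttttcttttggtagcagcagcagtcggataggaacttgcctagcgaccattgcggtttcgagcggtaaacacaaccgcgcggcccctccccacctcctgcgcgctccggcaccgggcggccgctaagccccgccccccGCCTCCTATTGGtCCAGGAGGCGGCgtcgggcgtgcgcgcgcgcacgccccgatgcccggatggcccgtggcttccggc
The gained sites lay at 33957492 to 33957891 for Twist1 and at 128685299 to 128685698 for Itgb1. Both extend beyond the promoter window, and sequence outside it was not searched, so the sites themselves may still contain the motif. The Cebpb site, at 167688475 to 167688874, was centred on its match, at a distance of 0 bp. The Mdm2 promoter had 2 matches on opposite strands, and the site at 117710532 to 117710931 had its centre 87 bp from the nearer one.

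Almost every day 0 site was found again in Thy1+ cells, and nearly as many sites were added. In Thy1+ cells, 24793 of 52800 sites (47.0%, 46.5 to 47.4) were gained and 28007 (53.0%) overlapped a day 0 site. In day 0 cells, 978 of 28838 sites (3.39%, 3.19 to 3.61) were lost and 27860 (96.6%, 96.4 to 96.8) were kept. With the Thy1+ Ctcf shRNA list in place of the Thy1+ control list, the gained share was 39.2% and the lost share 4.97%.

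**Figure D1:**
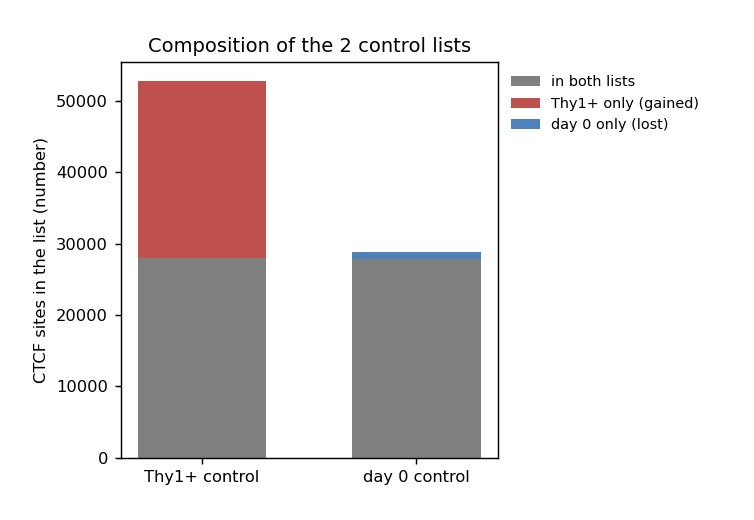
Number of CTCF sites (vertical axis) in the Thy1+ control list and the day 0 control list, split into sites in both lists (grey), gained sites (red) and lost sites (blue). The grey parts, 28007 and 27860 sites, are nearly equal, and the red part, 24793 sites, makes up the difference in length.

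The same contrast in cells with an shRNA against Ctcf gave a gained share of 50.4% of 45291 Thy1+ sites and a lost share of 5.23% of 23600 day 0 sites. Comparisons that share one of the lists are given here only side by side. In unsorted day 10 OSKM cells against day 0 cells, 38.9% of 43356 sites were gained and 8.19% of day 0 sites were lost. In the next sorted population, SSEA1- Thy1- cells against Thy1+ cells, 13.2% of 50890 sites were gained and 16.4% of the Thy1+ sites were lost. Those last 2 lists have common coordinates, unlike the Thy1+ and day 0 lists.

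Gained and kept sites had a similar spacing. The nearest other Thy1+ site was at a median of 10.2 kb for both gained and kept sites, measured between interval starts. A gained site was at a median of 19.9 kb from the nearest day 0 site, and 588 gained sites (2.37%) were separated from one by a gap of at most 1 kb. Lost sites were nearer to the other list, which for them was the longer Thy1+ list. A denser list by itself gives shorter distances, and this part was not separated. The median distance of lost sites to a Thy1+ site was 7.82 kb. Of the 978, 151 (15.4%, 13.3 to 17.8) were separated from one by a gap of at most 1 kb.

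Gained sites were spread over all chromosomes. Their share of the Thy1+ sites of an autosome was between 43.2% and 49.5%, with a median of 47.1% over 19 autosomes, and lost sites were 2.74% to 4.50% of the day 0 sites. On chromosome X, 738 of 1432 Thy1+ sites (51.5%, 48.9 to 54.1) were gained and 18 of 707 day 0 sites (2.55%, 1.62 to 3.99) were lost. The Y chromosome had 11 Thy1+ sites and 1 day 0 site.

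Most gained sites were sites of ESCs. Of the 24793 gained sites, 21350 (86.1%, 85.7 to 86.5) overlapped a site of wild-type ESCs, which have the longer list of 83173 sites, and 47.8% a site of day 10 OSKM cells. Kept sites were in these lists in 98.0% and 94.0% of cases. Lost sites were in them in 44.3% (41.2 to 47.4) and 31.0% (28.2 to 33.9) of cases. The share of lost sites in day 10 cells depended on the day 0 list, with 19.8% when sites of either day 0 list counted and 63.2% when only day 0 sites also in the day 0 Ctcf shRNA list counted. In that last case it was above the share of gained sites, 55.2%. Taken by both lists at once, 40.2% of gained sites were in ESCs and not in day 10 OSKM cells, 45.9% were in both, 1.89% in day 10 cells only and 12.0% in neither, while 45.4% of lost sites were in neither.

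In the sorted cells, 67.2% of gained sites were in the SSEA1- Thy1- control list, 66.3% in the SSEA1+ control list and 61.1% in the day 12 Oct4-GFP+ control list. All 3 held 11813 of the gained sites (47.6%) and none held 4798 (19.4%). By contrast, all 3 held 93.7% of the kept sites. Of the lost sites, 544 (55.6%, 52.5 to 58.7) were in none of the 3 and 183 (18.7%) were in all 3. A minority of the sites missing from the Thy1+ list were thus in all 3 of these lists. Below, the 3 lists are called later by the order of the sorted populations and not by time. The SSEA1- Thy1- and SSEA1+ control lists, like the Thy1+ list, are named for a day 9 sample among others.

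The lists named for Ctcf shRNA also differed between the classes. In Thy1+ cells with Ctcf shRNA, 62.1% of gained sites were present, against 97.8% of kept sites. In day 0 cells with Ctcf shRNA, 6.41% (6.11 to 6.72) of gained sites, 75.3% of kept sites and 16.7% (14.5 to 19.1) of lost sites were present. Thus 163 of the 978 lost sites had a second listing among day 0 cells. SMARCA5, the ATPase of ISWI nucleosome-sliding complexes, was mapped in ESCs and had a site at 43.0% of gained sites, 64.2% of kept sites and 24.1% of lost sites.

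Across the 13 other CTCF lists of the series, a gained site was in a median of 8, a kept site in 13 and a lost site in 3. All 13 held 59.3% of kept sites, 2.38% of gained sites and 0.818% of lost sites. At the other end, 566 gained sites (2.28%), 14 kept sites (0.0500%) and 263 lost sites (26.9%, 24.2 to 29.8) were in no other CTCF list. Lists of the same coordinate set as the Thy1+ list contribute to these counts.

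**Figure D2:**
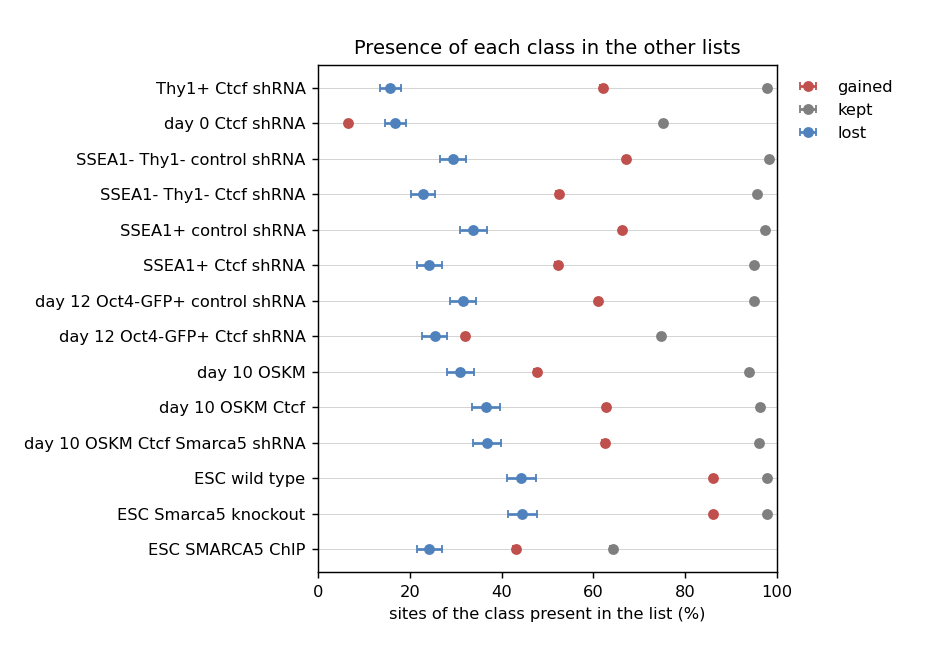
Share of gained (red), kept (grey) and lost (blue) sites that overlap a site of each other list (horizontal axis, percent; bars are 95% Wilson intervals), with 1 row per list. Kept sites have the highest share in each row, gained sites reach 86.1% in wild-type ESCs and have 6.41% in day 0 cells with Ctcf shRNA.

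Gained sites were more often in genes and at promoters than kept sites. The span of a protein-coding gene contained them in 60.4% of cases (59.8 to 61.0), kept sites in 51.9% (51.3 to 52.5) and lost sites in 50.2% (47.1 to 53.3). Exons and introns were not distinguished. More than 10 kb from every such span were 25.4% of gained, 29.2% of kept and 32.5% of lost sites. A promoter window, from 250 bases before to 50 bases after a RefSeq start, was overlapped by 2060 gained sites (8.31%, 7.97 to 8.66), 1303 kept sites (4.65%, 4.41 to 4.91) and 28 lost sites (2.86%, 1.99 to 4.11). Within 1 kb of a start were 13.6% of gained, 7.89% of kept and 6.54% of lost sites. The share of promoter sites in the whole Thy1+ list was 6.37%, in the day 0 list 4.55%, in the day 10 OSKM list 6.29% and in the ESC list 5.03%. With the Thy1+ Ctcf shRNA list in place of the Thy1+ control list, 5.83% (5.50 to 6.19) of gained and 4.64% (4.40 to 4.90) of kept sites overlapped a promoter window.

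Promoter sites were concentrated among the gained sites that later sorted cells did not have. Of the 4798 gained sites in none of the 3 later sorted control lists, 961 (20.0%, 18.9 to 21.2) overlapped a promoter window. The share was 14.6% of those in 1 list, 5.41% of those in 2, and 2.80% (2.52 to 3.12) of the 11813 in all 3. Among kept sites the shares were 9.89% (6.84 to 14.1), 10.4%, 5.98% and 4.46% in the same order, so gained sites in all 3 lists were at promoters less often than kept sites in all 3. With the Thy1+ Ctcf shRNA list, the share of gained sites was 14.4% in none of the 3 lists and 2.94% in all 3, and that of kept sites 8.38% and 4.49%. Gained sites that were absent from the Thy1+ Ctcf shRNA list were at promoters in 12.3% of cases and those present there in 5.89%. Those absent from ESCs were at promoters in 12.1% of cases and those present there in 7.70%. The 3 later control lists as a whole had fewer promoter sites than the Thy1+ list with 6.37%. Their shares were 3.91% for SSEA1- Thy1-, 3.41% for SSEA1+ and 4.63% for day 12 Oct4-GFP+ cells. The part of these lower shares in the split by later lists was not separated. In day 10 OSKM cells against day 0 cells, 8.60% of gained and 4.82% of kept sites were at promoters. In SSEA1- Thy1- cells against Thy1+ cells these shares were 1.19% and 4.32%.

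**Figure D3:**
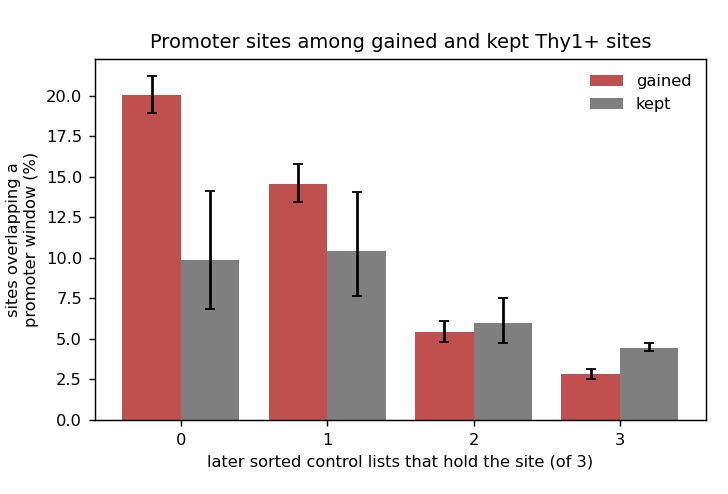
Share of gained (red) and kept (grey) Thy1+ sites that overlap a promoter window (vertical axis, percent; bars are 95% Wilson intervals), by the number of later sorted control lists that hold the site. For gained sites the share is 20.0% in none and 2.80% in all 3, while for kept sites it is 9.89% and 4.46%.

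Seen from the promoters, 2498 of 32817 windows (7.61%), at 2295 genes, overlapped a gained site and no kept or lost one. Kept sites overlapped 1534 windows (4.67%), at 1429 genes, and a lost site alone 28 windows (0.0853%). The motif core spelled out above, searched on both strands, was in 103 of the windows with a gained site (4.12%, 3.41 to 4.98) and in 224 of those with a kept site (14.6%, 12.9 to 16.5). It was in 2 of the 28 windows with a lost site, in 1.62% of windows with no site and in 2.43% of all windows. A looser form, with the A of CCA also free, was in 18.1% of gained, 35.7% of kept, 6.32% of empty and 8.61% of all windows. When the window had to contain the centre of the site, the shares for the first form were 6.25% for gained and 19.5% for kept sites. With the Thy1+ Ctcf shRNA list they were 4.80% for gained and 14.8% for kept sites.

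Where a window contained the motif, kept sites were centred on it more closely. The match lay at a median of 49 bp from the centre of a gained site, with 51.5% within 50 bp. For kept sites the median was 11.5 bp, with 85.3% within 50 bp. These windows were taken by an overlap of 1 bp or more, and only the window was searched. When the window had to contain the site centre, 1296 windows counted as gained, against 2498 by overlap, and 1067 as kept, against 1534. The part of this difference in the distances was not separated. The median GC content of the windows was 64.0% with a gained site, 60.3% with a kept site and 51.3% with no site. A match is a description of these letters only, and the part of GC content in the motif shares was not tested.

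Among genes, the added sites reached many that had none before. A site was assigned to each protein-coding gene whose span, widened by 10 kb, it touched. Of 16548 genes with a site in either list, 3321 (20.1%) had sites in Thy1+ cells only and 48 (0.290%) in day 0 cells only. More sites in Thy1+ cells than in day 0 cells were found at 11858 genes, equal numbers at 4485 and fewer at 205. A gained site was near 72.9% of the genes with a Thy1+ site, and a lost site near 5.99% of those with a day 0 site. Near protein-coding genes, 18504 of 38338 Thy1+ sites (48.3%) were gained, and this is the value beside which the gene groups below are read.

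The members of 12 groups of genes were described, 309 genes in all, of which 283 had a site in either list. Of these 283, 47 (16.6%) had sites in Thy1+ cells only, and 0 had sites in day 0 cells only, where a count of 0 allows up to 1.06%. Thy1+ cells had more sites than day 0 cells at 208 genes, as many at 73 and fewer at 2. The 2 with fewer were Foxf1 and Col1a1, named after their values were seen. Foxf1, a forkhead factor of mesenchyme, had 1 Thy1+ and 2 day 0 sites, and Col1a1, a chain of type I collagen, 2 and 3.

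Some of these genes had no site in the other Thy1+ list. Of the 46 genes in the plot of sites by gene, which have Thy1+ control sites and no day 0 sites, 11 had 0 sites in the Thy1+ Ctcf shRNA list. They were Fut4, Timp1, Bmp4, Cldn6, Klf5, Tfcp2l1, Hoxc12, Cdkn1b, Bmi1, Ezh2 and Isg15. Thy1 and Nt5e each had 1 site in that list, but none of their Thy1+ control sites was in it. With that list in place of the control list, the gained share was 39.8% near all protein-coding genes. It ran from 31.8% for the fibroblast matrix group to 53.9% for the TGF-beta and BMP group (42.8 to 64.7). The chromatin modifiers followed with 52.8% (43.4 to 62.1). Of the same 46 genes, 7 had a site in day 0 cells with Ctcf shRNA. They were Prrx1, Hoxa4, Gnasas1, Smarca5, Mycn, Tet2 and Wdr5. At each of these 7, that day 0 list held at least 1 of the Thy1+ control sites, so Thy1+ only refers to the control lists.

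**Figure D4:**
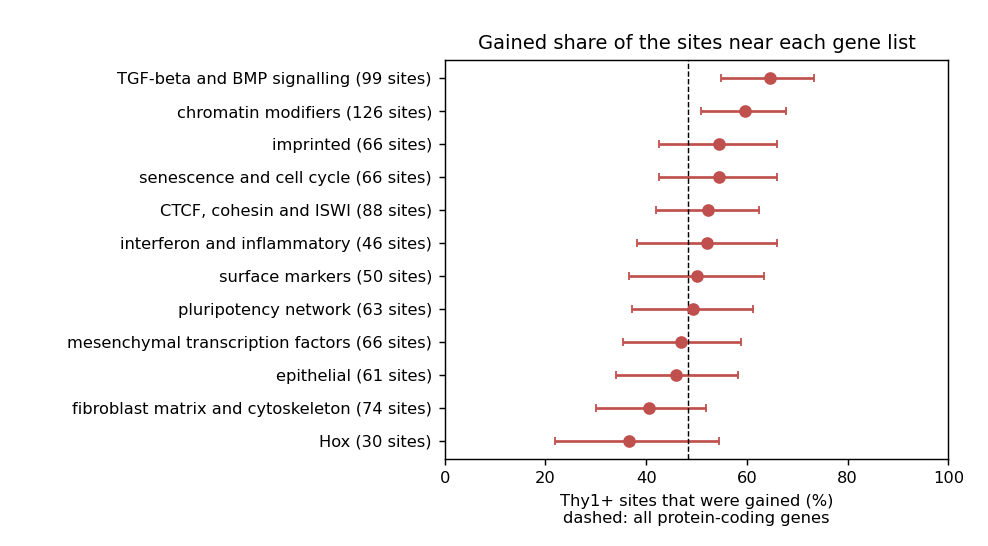
Share of the Thy1+ sites near each group of genes that were gained (horizontal axis, percent; bars are 95% Wilson intervals), each site counted once per group, with all protein-coding genes as a dashed line. The intervals of the TGF-beta and BMP group (64.6%) and of the chromatin modifiers (59.5%) lie above the dashed line at 48.3%, and the other 10 include it.

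Surface markers used to follow reprogramming had 25 gained sites of 50 (50.0%), and none of their 24 day 0 sites was lost, where a count of 0 allows up to 12.5%. The Thy1 gene had 2 sites in Thy1+ cells and 0 in day 0 cells. Both lay in its span on chromosome 9, at chr9:44043243-44043642, which no other CTCF list of the series had, and at chr9:44044371-44044770, which 3 others had, ESCs among them. Near Thy1, other lists had 1 site in Thy1+ cells with Ctcf shRNA, 0 in day 0 cells with Ctcf shRNA, 0 in SSEA1- Thy1- cells, 1 in SSEA1+ cells, 2 in day 12 cells, 0 in day 10 OSKM cells and 3 in wild-type ESCs. Populations that were not sorted for Thy1 thus also had sites near the gene. The list of Thy1+ cells with Ctcf shRNA held neither of the 2 Thy1+ control sites, so its 1 site near Thy1 was a different site.

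Other surface genes with sites in Thy1+ cells only were Fut4, Epcam and Nt5e. Fut4, a fucosyltransferase that makes the SSEA1 epitope, had 1 site, centred at -531 bp from its start. Epcam, an epithelial adhesion molecule, had 2, and Nt5e, the ectonucleotidase CD73 of mesenchymal cells, had 1, centred 151 bp inside the gene. Itgb1 had 4 Thy1+ sites and 1 day 0 site, and Ncam1, a neural adhesion molecule, had 12 and 5. Cd44, the hyaluronan receptor, had 2 sites in each list. Pdgfra, the receptor for platelet-derived growth factor on mesenchymal cells, had 6 Thy1+ sites and 5 day 0 sites, with none of them gained or lost, which can happen where 1 interval overlaps more than 1 of the other list or lies across the 10 kb limit.

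Mesenchymal transcription factors had 31 gained sites of 66 (47.0%) and 2 lost of 37 day 0 sites. Of 22 members with a site, 13 had more sites in Thy1+ cells, 8 as many and 1 fewer. Prrx1, a homeobox factor of fibroblasts and limb mesenchyme, was the member with sites in Thy1+ cells only. Its 4 sites included chr1:163313385-163313784, centred 66 bp inside the gene. Runx1, a Runt-family factor, had 8 Thy1+ and 2 day 0 sites. Snai1, Snai2 and Zeb2, repressors of epithelial genes, had 2 sites in each list, all kept.

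Matrix and cytoskeleton genes of fibroblasts had 30 gained sites of 74 (40.5%, 30.1 to 51.9) and 1 lost of 45. The interval includes the 48.3% near all protein-coding genes. Of 26 members with a site, 18 had more sites in Thy1+ cells, 7 as many and 1 fewer. Fn1, Lum and Timp1 had sites in Thy1+ cells only. Fn1, encoding fibronectin, had 3 sites, and Lum, the small proteoglycan lumican, had 2. Timp1, an inhibitor of matrix metalloproteinases, had 1 site, centred at -3.31 kb from its start, which no other CTCF list held. A different site near Timp1, 1 per list, was in the SSEA1- Thy1-, SSEA1+ and day 12 control lists and in wild-type ESCs. Vim, Acta2, Tpm1 and Col1a2, which encode an intermediate filament, smooth muscle actin, a tropomyosin and a chain of type I collagen, had equal numbers in both lists, all kept.

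TGF-beta signalling is known to maintain the mesenchymal state, BMP signalling to favour the early epithelial turn of reprogramming, and the group also holds inhibitors of the pathway. The group had the highest gained share of the 12, 64 of 99 sites (64.6%, 54.8 to 73.4), with 2 lost of 37. All 23 members had a site, 20 had a gained one, and the median difference was 2 sites per gene, against 1 over all protein-coding genes. The chromatin modifiers and the CTCF, cohesin and ISWI group also had a median difference of 2. Among ligands, Tgfb1 had 5 Thy1+ sites and 1 day 0 site, Tgfb2 had 4 and 2, and Tgfb3 and Bmp2 had 1 in each list. Bmp4 had 1 site, inside the gene, in Thy1+ cells and 0 in day 0 cells. Ltbp1, which holds latent TGF-beta in the matrix, had 11 and 8.

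Receptors accounted for many of these sites. Bmpr1a had 10 Thy1+ sites and 3 day 0 sites, of which 8 were gained and 1 was lost. Bmpr2 had 7 and 1, Acvr1 had 7 and 2, and Tgfbr2 and the co-receptor Tgfbr3 had 6 and 1 each. Tgfbr1 had 4 and 3, and its promoter window overlapped a gained site. The receptors differed among themselves, with 1 gained site at Tgfbr1 and 5 to 8 at the others.

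Downstream of the receptors, the signal transducers Smad2 and Smad4 had 3 Thy1+ sites and 1 day 0 site each, and Smad3 had 5 and 3. The inhibitory factor Smad7 had 3 Thy1+ sites and 0 day 0 sites, and its relative Smad6 had 7 and 5. Ski and Skil, corepressors that bind SMAD proteins, had 4 and 3 Thy1+ sites and 0 day 0 sites. One of the 4 Ski sites, chr4:155221834-155222233, was in no other CTCF list, and another, chr4:155165051-155165450, was in 12 of 13. Of the targets, the Id genes encode inhibitors of basic helix-loop-helix factors. Id1 had 1 site in each list, Id2 had 2 Thy1+ sites and 1 day 0 site, and Id3 had 3 and 1.

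Epithelial genes had 28 gained sites of 61 (45.9%) and 3 lost of 36. Besides Epcam, the members with sites in Thy1+ cells only were Cldn6, a claudin of tight junctions, Krt18, a keratin of simple epithelia, and Dsp, the desmosome protein desmoplakin, with 1 site each. The Krt18 site was in 12 of the 13 other CTCF lists and the Cldn6 site in 4. Cdh1, encoding E-cadherin, had 3 Thy1+ sites and 2 day 0 sites. Tjp3, a scaffold of tight junctions, had 3 sites in each list, with 2 gained and 2 lost.

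Pluripotency genes had 31 gained sites of 63 (49.2%, 37.3 to 61.2) and 1 lost of 33, a gained share near that of all genes. Klf5, a Krüppel-like factor, and Tfcp2l1, a factor of naive pluripotency, each had 1 site in Thy1+ cells and 0 in day 0 cells. The Tfcp2l1 site, chr1:118627641-118628040, was centred at -105 bp from its start. The endogenous Pou5f1 gene, which encodes Oct4, and Nanog each had 2 Thy1+ sites and 1 day 0 site. Sox2 had 2 sites and Klf4 1 site in each list. Tet1, a dioxygenase that oxidises methylated cytosine, had 7 Thy1+ and 2 day 0 sites, and Jarid2, a cofactor of Polycomb complex 2, had 10 and 5.

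Hox genes, the clustered regulators of body pattern, had the lowest gained share, 11 of 30 sites (36.7%, 21.9 to 54.5), with 1 lost of 20. Hoxa4 with 2 sites, and Hoxb2 and Hoxc12 with 1 each, had sites in Thy1+ cells only. Neighbouring Hox genes share sites, which were counted once for the group. At imprinted genes, 36 of 66 sites (54.5%) were gained and none of 28 day 0 sites was lost, where a count of 0 allows up to 10.7%. H19, an imprinted noncoding RNA next to a CTCF-bound control region, had 2 Thy1+ sites and 1 day 0 site, and its neighbour Igf2, a growth factor gene, had 3 and 1. Sites in Thy1+ cells only were found at Igf2r with 2, Dlk1 with 2, Rian with 3, Mirg with 1, Ube3a with 1 and the antisense transcript Gnasas1 with 2. Dlk1, Rian and Mirg belong to 1 imprinted cluster on chromosome 12. Both Gnasas1 sites were also in the list of day 0 cells with Ctcf shRNA.

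Genes for CTCF, cohesin and ISWI remodellers had 46 gained sites of 88 (52.3%) and 1 lost of 43. The Ctcf gene itself had 3 sites in each list, with 1 gained and 1 lost. Smc1a, a core subunit of cohesin, had 1 Thy1+ site and 0 day 0 sites. Mau2, which helps to load cohesin, and Cdca5, which stabilises it on chromatin, had 3 and 0 each. Of the ISWI genes, Smarca1 had 2 and 0, Baz1a had 4 and 0, and Smarca5 had 1 and 0. The Smarca5 site was in 12 other CTCF lists, including that of day 0 cells with Ctcf shRNA. Wapl, which releases cohesin, had 4 Thy1+ sites and 1 day 0 site, and its promoter window overlapped a gained site.

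Senescence and cell cycle genes had 36 gained sites of 66 (54.5%) and 1 lost of 31. Cdkn2a, which encodes the p16 and p19 barriers to reprogramming, had 2 Thy1+ sites and 1 day 0 site, one promoter window with a kept site and another with a gained one. Cdkn1b, a cyclin-dependent kinase inhibitor, had 1 and 0, Rbl1, a relative of the retinoblastoma protein, had 2 and 0, Bmi1, a Polycomb repressor of Cdkn2a, had 2 and 0, and Mycn, a Myc family factor, had 2 and 0. Rb1 itself had 6 and 1. One Bmi1 site, chr2:18676327-18676726, was centred at -492 bp from its start.

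Chromatin modifier genes had 75 gained sites of 126 (59.5%, 50.8 to 67.7) and 1 lost of 52. Each of the 29 members with a site had a gained one and more sites in Thy1+ cells. Over all protein-coding genes, 72.9% of those with a Thy1+ site had a gained site. Of those with a site in either list, 71.7% had more sites in Thy1+ cells. The 29 members shared 126 Thy1+ sites, against 38338 at 16548 protein-coding genes, so they had more sites per gene. A gene with more sites has more occasions for a gained site, and this part was not separated. By the control lists, sites in Thy1+ cells only were found at Kdm4c, a demethylase of histone H3 lysine 9, with 2. Tet2, a methylcytosine dioxygenase, had 3, and Wdr5, a subunit of H3 lysine 4 methyltransferases, had 3. The Tet2 site chr3:133547726-133548125 was in 1 other CTCF list, that of day 0 cells with Ctcf shRNA. The Wdr5 site chr2:27518285-27518684 was in 11 other CTCF lists, that list among them. Ezh2 and Eed, the catalytic and a core subunit of Polycomb complex 2, had 1 each, and the Ezh2 site was centred 238 bp inside the gene. Kdm2b, a demethylase that recruits Polycomb complex 1 to CpG islands, had 11 Thy1+ and 5 day 0 sites. Smarcc1, a core subunit of the BAF remodeller, had 7 and 1.

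Interferon and inflammatory genes had 24 gained sites of 46 (52.2%), and none of 22 day 0 sites was lost, where a count of 0 allows up to 13.6%. Nfkb1 and Rela, subunits of NF-kappa B, had 5 and 2 Thy1+ sites and 0 day 0 sites. Isg15, a ubiquitin-like interferon target, had 1, and the chemokine genes Ccl2 and Cxcl1 had 1 and 2, with 0 in day 0 cells. Il6, a cytokine gene, had 3 Thy1+ sites and 1 day 0 site. Of 22 members with a site, 13 had more sites in Thy1+ cells and 9 as many. The interferon targets Ifit1, Ifit2 and Ifit3 were among those with equal numbers.

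Over the member promoters of all 12 groups, 31 windows at 30 genes overlapped a gained site and 20 windows at 18 genes a kept site, while none had a lost site alone. The motif was in 2 of the 20 kept windows (10.0%), those of Cebpb and Mdm2 shown above, and in 0 of the 31 gained windows, where a count of 0 allows up to 9.68%. Twist1 and Itgb1, shown above, are among the gained windows.

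**Figure D5:**
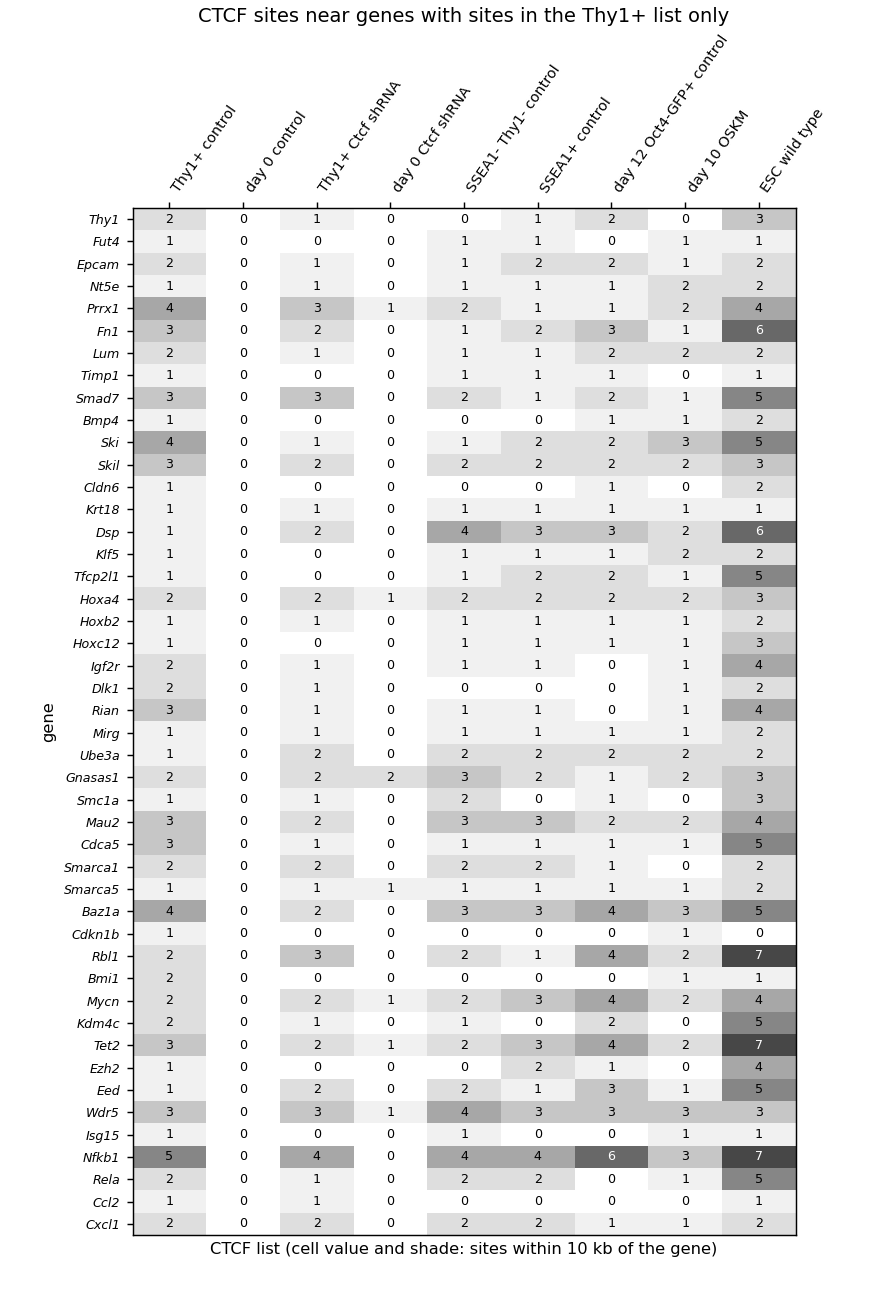
Number of sites within 10 kb of each gene (rows) in 9 CTCF lists (columns; darker means more). The genes are members of the 12 groups that have sites in the Thy1+ control list and none in the day 0 control list. Each except Cdkn1b has a site in ESCs, 7 of the 46 shown have one in day 0 cells with Ctcf shRNA, and 11 have none in the Thy1+ Ctcf shRNA list.

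Genes with the most gained sites were long. Outside chromosome 18 they included Rbms3 with 20 gained of 27 Thy1+ sites (9 day 0 sites), Rora with 19 of 30 (11), Cdh13 with 15 of 28 (13), Anks1b with 14 of 21 (7), Gpc6 with 13 of 16 (4) and Ctnna2 with 13 of 19 (6). The spans of these 6 ran from 734.8 to 1184.9 kb, against a median of 17.2 kb over protein-coding genes. Rora is a nuclear receptor of circadian and metabolic control, and Cdh13 an unusual, membrane-anchored cadherin. Above them stood a single locus, the clustered protocadherins on chromosome 18. The span of the RefSeq gene model Gm37013, at 36952648 to 37841873, contains 55 genes with protocadherin symbols and had 55 Thy1+ sites and 19 day 0 sites, with 37 gained and 2 lost. The models Gm38666 and Gm38667 cover nearly the same span and add no further locus. Protocadherins are adhesion proteins of neurons whose promoter choice depends on CTCF.

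Gained sites were counted in runs along the chromosome, uninterrupted by a kept site. With 47.0% of all Thy1+ sites gained, such runs also occur when gained and kept sites follow in random order. Clustering was not tested. The longest runs had 13 sites, with 0 day 0 sites in the span. They lay around Tshz2 (chromosome 2, 169383705 to 170028224), around Foxn3 and Efcab11 (chromosome 12, 99158232 to 99799389) and around Rcbtb1, the Phf11 genes, Setdb2 and Cab39l (chromosome 14, 59155533 to 59468133). Setdb2 belongs to a family of histone methyltransferases, and Foxn3 is a forkhead repressor. Short runs were far more common, with 6372 runs of 1 gained site and 3051 of 2.

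Lost sites were mostly single. Of the runs of lost sites along the day 0 list, 891 had 1 site, 39 had 2, 1 had 4 and 1 had 5. The longest spanned 56.2 kb on chromosome 5, from 129331244 to 129387452, a stretch with no protein-coding gene. Its 5 sites were in 3, 6, 11, 0 and 0 of the 13 other CTCF lists, and the last 2 started only 494 and 439 bp from the start of a Thy1+ site, so they lay beside Thy1+ intervals without touching them. The run of 4 spanned 45.5 kb on chromosome 9, from 62783381 to 62828840, at Itga11, an integrin that binds collagen, and Fem1b, a substrate adaptor of a ubiquitin ligase. Its sites were in 2, 6, 0 and 13 other lists, and the one in 0, chr9:62810653-62811052, likewise started only 417 bp from the start of a Thy1+ site. The site in 13 of 13, chr9:62828441-62828840, was thus listed in every CTCF list except that of Thy1+ control cells.

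Genes with the most lost sites were Fem1b, Dpp6, Rbfox1 and Camta1 with 3 each. Fem1b had 1 Thy1+ site and 3 day 0 sites. Dpp6, a partner of neuronal potassium channels, had 13 and 12, Rbfox1, a splicing regulator of neurons and muscle, had 17 and 18, and Camta1, a calmodulin-binding transcription activator, had 28 and 20. Losses at the last 3 thus stood beside gains in long genes. Another 47 genes had 2 lost sites. Those with the largest share of their day 0 sites lost included Mrpl39, Nkx2-2, 1110051M20Rik, Ank, Nfatc1 and Nwd1. Mrpl39, encoding a protein of the mitochondrial ribosome, had 0 Thy1+ sites and 2 day 0 sites, and it had 2 sites in SSEA1- Thy1- cells and 1 in SSEA1+ cells. Nkx2-2, a homeobox factor of neural tube and pancreas, had 1 Thy1+ and 2 day 0 sites, while Nfatc1, a calcium-regulated transcription factor, had 6 and 3.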

How the data were processed

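CTCF ChIP-seq peak lists of Thy1+ and day 0 control cells were compared, with the other 14 lists of the series (13 for CTCF, 1 for SMARCA5) used to describe the sites. The authors' deposited lists give intervals of 400 bp and a score, which is 0 in every line. The submitters' processing notes name the build mm10 (GRCm38) and, with no version, the tools MACS2, HOMER, Bowtie2, deepTools, bedtools, Picard, SAMtools, Trim Galore and FastQC. Their roles, the thresholds, the pooling of samples and the read depth are not given by the sources used here, so the precision of each list is unknown.

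Samples were grouped by title. Overlaps of 1 bp or more, Wilson intervals and motif searches were computed with Python 3.11.15, NumPy 2.4.6, pandas 2.3.3, SciPy 1.17.1 and matplotlib 3.10.9, and the overlap step was checked on simulated lists. Genes, starts and promoter sequences came from RefSeq tables of GRCm38.p6, matched for all 309 listed genes (Nespas as Gnasas1); the windows used numbered 32817. Named genes were Thy1, the 10 with the most gained and the 10 with the most lost sites, up to 6 members per list with sites in 1 of the lists only, the 3 longest runs, and up to 3 member promoters per class; other members were named after their values were seen, and 2 genes that the rule names are not reported here. The members and lists were chosen with earlier results of these data known. Alternatives changed the overlap rule, either list, the chromosomes, merging, the distance to genes and the motif. Input samples and exon annotation were not used here.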

Additional observations from a re-analysis of the deposited data

How the results depend on the processing

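The gained share of Thy1+ sites (47.0%) and the lost share of day 0 sites (3.39%) depended mainly on which list stood for a population. They were 36.0% and 5.50% with Thy1+ control sites that the Thy1+ Ctcf shRNA list also held, 39.2% and 4.97% with the Thy1+ Ctcf shRNA list, 43.9% and 5.90% with sites of either day 0 list, and 60.1% and 0.771% with day 0 control sites that the day 0 Ctcf shRNA list also held. A reciprocal overlap of 50% gave 47.7% and 4.50%, sites at most 500 bp apart a lost share of 3.05%, and merging sites within 1 kb a gained share of 46.4%. Genes with sites in Thy1+ cells only (3321) numbered 5043 with the stricter day 0 list and 1287 with spans widened by 50 kb. Genes with sites in day 0 cells only (48) numbered 138 with the stricter Thy1+ list, 116 with the Thy1+ Ctcf shRNA list, 103 with either day 0 list and 10 with the stricter day 0 list. The other 18 values of these 4 results stayed within their intervals or within 1.5 times the count. The share of gained sites found in ESCs ran from 85.6% to 88.6% and that of lost sites from 29.3% to 59.5%. In day 10 OSKM cells the share of gained sites ran from 45.5% to 55.2% and that of lost sites from 19.8% to 63.2%. The stricter day 0 list gave 55.2% of gained and 63.2% of lost sites, which turned their order round. The looser motif and the centred window, added after seeing the data, moved both motif shares. With the Thy1+ Ctcf shRNA list, also added for these results, the gained shares near the TGF-beta and BMP group (53.9%) and the chromatin modifiers (52.8%) had intervals above the share near all genes (39.8%), and the other 10 included it. No paired analysis was possible because each group has 1 list made from its samples together. For the same reason no replicate could be left out, and a stricter peak threshold could not be applied because every score is 0. Depth is unknown and limits what an absent site shows.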
